A study of Danio rerio with 13 samples.

Results

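Skin of zebrafish heterozygous for a tert mutation was compared with skin of wild-type fish, using 10 of the 13 samples of a study of tert mutants. The samples were chosen by the genotype in their labels: 5 were AB tert(+/-) (HET) and 5 were AB wild type (WT), and the other 3 samples, AB tert(-/-) (HOM), served to estimate the spread between samples and for a comparison with HET. All fish were males of the AB strain at 3 months of age, and none had a treatment or a transgene in the labels. RNA of each skin sample was sequenced and counted per gene.

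Telomerase adds repeats to chromosome ends, and tert encodes its catalytic reverse transcriptase, so that lower telomerase activity lets telomeres shorten as cells divide. Zebrafish tert mutants are used as a model of telomeric ageing, and the epidermis is a tissue that renews throughout life. The mutant line carries a premature stop codon in tert, so the transcript need not be lost and its level does not check the genotype labels. Telomere length, the generation of the fish and which samples shared parents were not given in the sources used here. The paper that reported these fish sorted human Alzheimer's and Parkinson's samples into subclasses. It used tert mutants, in several tissues, to test whether the changes found may go with telomeric ageing. Its attention lay on retinoids and sex hormones. Genes of retinoids and steroid hormones are therefore described beside the genes that differed most.

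The 5 HET libraries held 16018919 to 30249877 counts and the 5 WT libraries 17782298 to 28811050, a difference within their spread (two-sided exact permutation test, p = 0.802, n = 5 each). Mitochondrially encoded genes took 41.9% ± 8.42 of the counts in HET and 31.2% ± 7.72 in WT (SD, n = 5 each, exact permutation p = 0.0714, or 0.179 adjusted over 5 library measures). Levels are counts per 1000000 counts of the library (CPM), with libraries scaled by the trimmed mean of M-values (TMM), whose factors averaged 0.933 in HET and 1.12 in WT. Keratin krt5, of the basal epidermis, stood at 6613 to 12864 CPM in HET and 4013 to 20532 CPM in WT. The keratinocyte keratin krt4 stood at 602 to 1750 CPM in HET and 538 to 3536 CPM in WT. By contrast cyt1, a keratin of the outer layer, stayed at 0.523 to 1.28 CPM in HET and 0.283 to 0.654 CPM in WT. Skeletal muscle creatine kinase ckma reached 878 to 6507 CPM in HET and 309 to 5535 CPM in WT, so the samples also held muscle RNA. Liver transcripts set WT5, and less so WT1, apart from the other skin samples (described with the liver genes), and values without these 2 samples are given beside the results. In bulk RNA, fewer cells of a type and less RNA per cell cannot be told apart.

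tert itself was higher in HET skin. It stood at 16.9, 23.4, 19.1, 14.5 and 40.5 CPM in HET, against 12, 13.4, 9.29, 7.09 and 11.66 CPM in WT, so the lowest HET sample lay above the highest WT sample. The log2 fold change was 1.1 ± 0.33 (SE), and an exact permutation test of log2 CPM gave p = 0.00794, the smallest that 252 splits of 5 and 5 samples allow. In the fits across all genes tert did not pass (edgeR quasi-likelihood test, adjusted p = 0.794, and DESeq2, adjusted p = 0.117). HET5 was the highest sample, and without it the log2 fold change was 0.79. It was 1.2 without WT1 and WT5 (DESeq2 adjusted p = 0.2985). The 2 groups stayed apart under 3 of the 5 scalings tried. In HOM skin tert stood at 15.7, 16.4 and 37.3 CPM, within the HET range (HET over HOM log2 fold change −0.02 ± 0.38).

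A neighbour of tert and a gene for RNA modification also lay higher in HET. slc6a18 (ENSDARG00000068387), of an amino acid transporter family, lies beside tert in the RefSeq annotation of a later assembly and was looked at after its values were seen. It stood at 0.298, 0.850, 0.458, 0.687 and 0.600 CPM in HET and 0.272, 0.0409, 0.0706, 0 and 0.296 CPM in WT, a log2 fold change of 1.98 ± 0.63 at a level of few counts. The HET samples lay just above the WT samples, with 0.298 CPM as the lowest in HET and 0.296 CPM as the highest in WT. DESeq2 called slc6a18 in the fit without both WT1 and WT5, and not in those without WT1 or WT5 alone. trmt1 (ENSDARG00000010978), a transfer RNA methyltransferase, had 10.5, 16, 23.6, 12.2 and 40.6 CPM in HET against 9.09, 8.79, 9.39, 7.09 and 9.18 CPM in WT. Its log2 fold change was 1.24 ± 0.33 (DESeq2 adjusted p = 0.0501), and HET5 was the highest sample for trmt1 as for tert.

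The telomere genes as a list did not follow tert. Of 26 genes for telomerase, shelterin and telomere replication, tert among them, 10 lay above and 16 below WT in HET, with a median log2 fold change of −0.03, beside −0.04 and 45.6% above WT over the 19141 genes tested. None passed edgeR or DESeq2. dkc1, the pseudouridine synthase of the telomerase RNA complex, had a log2 fold change of 0.47 ± 0.28, and pinx1, a telomerase inhibitor in human cells, had 0.48 ± 0.18. pinx1 read 34.2, 42.4, 26.5, 32.1 and 26.5 CPM in HET and 21.5, 20.8, 21.3, 23.6 and 29.0 CPM in WT, so only WT5 reached the HET range. tnks (ENSDARG00000077650), a tankyrase that acts on shelterin, had −0.47 ± 0.26.

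**Figure D1:**
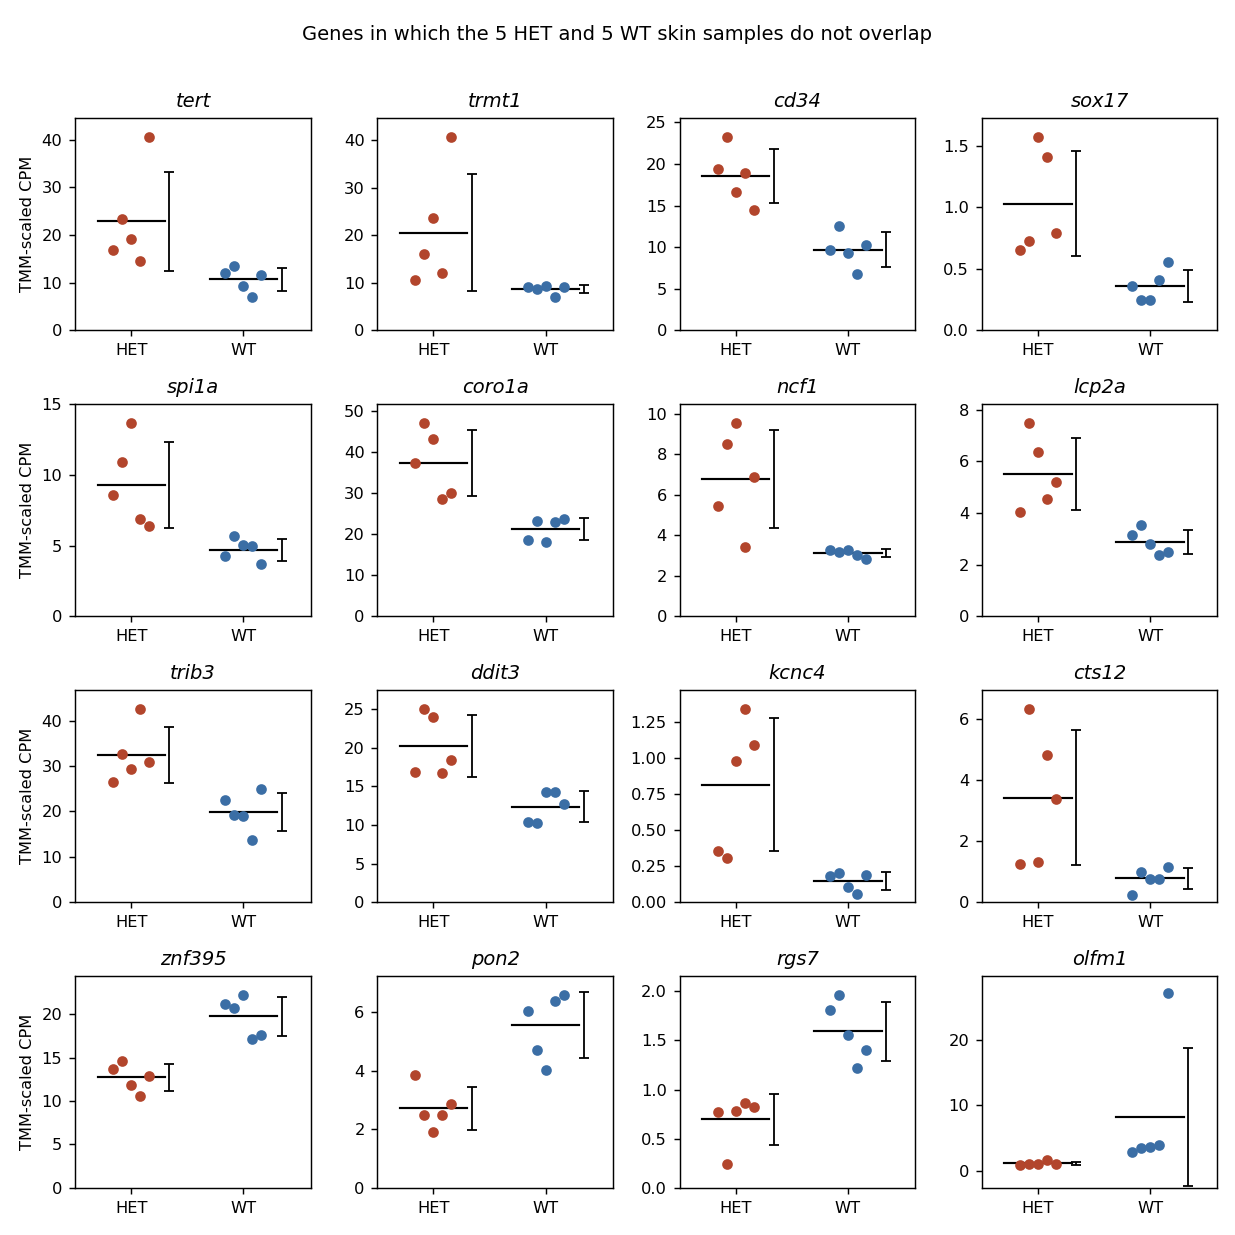
TMM-scaled CPM of 16 genes in each HET (red, left) and WT (blue, right) skin sample, n = 5 each, with the horizontal line at the mean and the bar beside it showing the SD. No HET sample overlaps a WT sample in any panel: tert runs from 14.5 to 40.5 CPM in HET and from 7.09 to 13.4 CPM in WT, and znf395 lies lower in HET than in WT.

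Few genes separated HET from WT across the whole table. The edgeR test called 0 of 19141 genes (0% called, smallest adjusted p 0.794), with 1051 at an unadjusted p under 0.05, 385 of them higher and 666 lower in HET. limma voom also called 0, with 645 unadjusted. DESeq2, the tool named in the study's methods, called 28 genes higher (0.178% of the 15699 genes that it gave an adjusted p) and 95 lower (0.605%). By a count that needs no model, 70 genes had all 5 HET samples above all 5 WT samples (0.366% of genes tested) and 38 had all 5 below (0.199%).

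The DESeq2 calls changed as single samples were left out. Of the 95 genes called lower, 90 had their highest value in WT5, and 27 belonged to the liver list. Only 3 of the 95, against 17 of the 28 called higher, had samples that did not overlap. Leaving out WT5 left 27 calls, 22 higher and 5 lower in HET, of which 12 were among the 123. Leaving out HET4 left 1 call, which was among the 123. Leaving out WT1 gave 1 call, per1, which was not among the 123. Leaving out HET2 gave 4 calls, of which 3 were among the 123. Of the 28 genes called higher, 13 had their lowest value in WT1. The genes called in at least 7 of the 10 leave-one-out fits were znf395 (in 8), cd34 and ENSDARG00000038891 (in 7 each). Those called in 6 included cts12, fndc7 and f9.

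**Figure D2:**
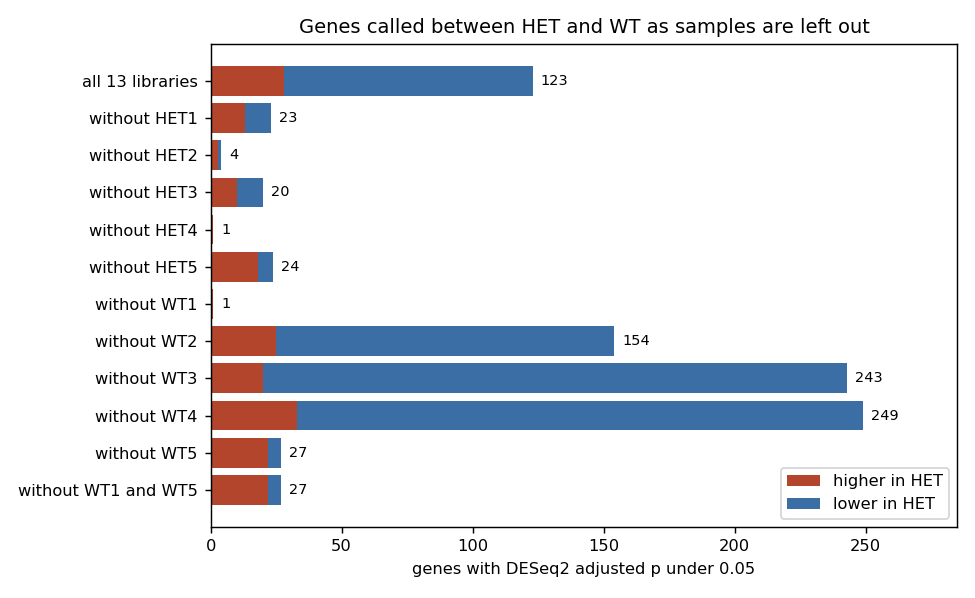
Number of genes with a DESeq2 adjusted p under 0.05 between HET and WT, with the genes higher in HET in red and those lower in blue, for all 13 libraries and as samples are left out. The total of 123 becomes 1 without HET4 or WT1 and 249 without WT4, and the genes lower in HET number 5 without WT5.

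The non-overlapping genes depended on how libraries were scaled. The 70 higher genes had a median log2 fold change of 0.96, up to 2.54 (ENSDARG00000038891, which has no symbol), and the 38 lower genes one of −0.63. With no scaling beyond library totals, the median over all genes moved from −0.04 to −0.29, and 12 genes were higher and 195 lower. With the total of nuclear genes alone, 82 were higher and 25 lower. Under all 5 scalings 9 genes stayed higher and 9 lower, among them kcnc4, sox17, tmem204, exoc3l2a and ptpru higher and rgs7, olfm1, igfbp2, npc1l1, pomk and plxna4 lower.

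Several genes of white blood cells were among those higher in HET. spi1a (ENSDARG00000067797), an ETS transcription factor of myeloid cells, stood at 8.57, 10.9, 13.7, 6.87 and 6.42 CPM in HET and 4.26, 5.68, 5.02, 4.94 and 3.67 CPM in WT. It rose by a log2 fold change of 0.98 ± 0.24 (DESeq2 adjusted p = 0.0341), and no HET sample overlapped WT under 3 of the 5 scalings. coro1a (ENSDARG00000054610), a coronin of the leukocyte actin cortex, had 37.4, 47.1, 43.3, 28.7 and 29.99 CPM in HET, against 18.6, 23.2, 18.2, 23.1 and 23.7 CPM in WT. Its log2 fold change was 0.80 ± 0.20 (DESeq2 adjusted p = 0.0379). ncf1 (ENSDARG00000033735), a cytosolic subunit of the phagocyte NADPH oxidase, had 5.47, 8.50, 9.55, 3.44 and 6.87 CPM in HET and 3.26, 3.19, 3.28, 3.02 and 2.85 CPM in WT (DESeq2 adjusted p = 0.0460). The 5 WT values of ncf1 lay close together, and HET4 came near them.

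Other genes called higher by DESeq2 included sash3, arhgap45 and abi3a, which belong to none of the 35 gene lists. sash3 (ENSDARG00000016541), an adaptor of lymphocytes, stood at 6.49, 6.80, 5.23, 4.19 and 3.42 CPM in HET and 2.93, 2.74, 2.4, 3.31 and 2.11 CPM in WT (log2 fold change 0.95 ± 0.24, DESeq2 adjusted p = 0.0414), apart under 1 of the 5 scalings. arhgap45 (ENSDARG00000062049), a GTPase-activating protein of blood cells, had 15.2, 18.2, 12.7, 13.0 and 9.61 CPM in HET and 6.95, 9.85, 7.10, 7.26 and 6.41 CPM in WT (0.87 ± 0.20, DESeq2 adjusted p = 0.0334), with HET5 just under WT2. abi3a (ENSDARG00000060072), an adaptor of the actin-nucleating WAVE complex, averaged 4.27 ± 1.54 CPM in HET and 1.94 ± 0.496 CPM in WT (SD, n = 5 each), and DESeq2 called it with an adjusted p of 0.0477. lcp2a (ENSDARG00000055955), a scaffold downstream of antigen receptors, and grna.1 (ENSDARG00000089362), of the granulin family, were looked at after their values were seen. lcp2a averaged 5.51 ± 1.39 CPM in HET and 2.86 ± 0.471 CPM in WT (DESeq2 adjusted p = 0.0414), and grna.1 3.06 ± 1.21 CPM in HET and 0.825 ± 0.548 CPM in WT (DESeq2 adjusted p = 0.0379). The DESeq2 calls of these 8 genes, from spi1a to grna.1, held in 1 to 4 of the 10 leave-one-out fits. Without WT1 and WT5 their log2 fold changes were 0.77 (arhgap45) to 1.97 (grna.1), and none was called, with adjusted p from 0.0621 (grna.1) to 0.306 (spi1a).

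Of the marker lists of white blood cells, those of macrophages, T and NK cells and B cells lay higher in HET, and that of neutrophils was even. Of 37 macrophage and dendritic cell genes tested, 32 lay above WT in HET (median log2 fold change 0.56, beside −0.04 for all genes), and 4 were called higher by DESeq2 (0.178% of genes). Their mean centred level ran from −0.01 to 0.83 in HET and from −0.71 to 0.04 in WT on the log2 scale, and WT4 was the lowest sample. Of 31 T and NK cell genes 26 lay above WT (median 0.39) and of 19 B cell genes 14 did (median 0.42), with 0 of either called by edgeR or DESeq2. Of 14 neutrophil and mast cell genes 7 lay above WT, with a median of −0.00, and ncf1 was the only DESeq2 call. WT4 was the lowest sample for each of these lists and also for the muscle and endothelial lists. This was not particular to such cells, since WT4 was also lowest for dermal matrix (−0.80), adipocytes (−0.75), xanthophores (−0.74) and further lists. It was not lowest for all lists, and for the interferon list it was the highest WT sample (1.51). WT4 had the fewest genes with counts of the 10 samples (21642). Without WT4 the median was 0.25 for T and NK cells, 0.30 for B cells and −0.07 for neutrophils. That of macrophages was 0.37 or more as each of the 10 samples was left out. The part of WT4 in these differences was not tested further. With no scaling the 3 medians above 0 stayed positive (0.29 for macrophages, 0.14 for T and NK cells and 0.13 for B cells). Without WT1 and WT5 the medians were 0.74 for macrophages, 0.57 for T and NK cells, 0.47 for B cells and 0.34 for neutrophils, so that all 4 lists then lay higher in HET.

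Single lymphocyte genes varied more. themis, an adaptor of developing T cells, had 3.69, 5.40, 1.70, 1.1 and 3.34 CPM in HET and 1.84, 1.64, 1.24, 0.988 and 1.18 CPM in WT, and nkl.2, of the NK-lysin family of zebrafish, had 0.536, 0.911, 1.31, 0.722 and 1.24 CPM in HET and 0.393, 0.286, 0.353, 0.174 and 0.592 CPM in WT. The log2 fold changes were 1.14 ± 0.39 for themis and 1.36 ± 0.39 for nkl.2, and edgeR called neither. DESeq2 did not call themis and gave nkl.2 no adjusted p. ighm, the heavy chain of immunoglobulin M, stood at 1.07, 4.86, 4.05, 0.103 and 0.788 CPM in HET and 0.332, 0.532, 0.141, 0.465 and 1.26 CPM in WT. HET2 and HET3 carried its difference, and HET4 was lower than every WT sample. il2rga, syk and cd22 had log2 fold changes of 0.91 ± 0.38, 0.69 ± 0.31 and 0.68 ± 0.38.

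Endothelial genes also lay higher in HET. cd34 (ENSDARG00000095268), a sialomucin of blood vessel endothelium and of blood progenitors, stood at 19.4, 23.2, 16.6, 19 and 14.5 CPM in HET, against 9.67, 12.6, 9.25, 6.74 and 10.26 CPM in WT. No sample overlapped under 4 of the 5 scalings. The log2 fold change of 0.93 ± 0.19 (DESeq2 adjusted p = 0.0158) ran from 0.83 to 1.04 as single samples were left out, and DESeq2 called it in 7 of those 10 fits. It was 0.96 without WT1 and WT5 and then not called (adjusted p = 0.0847). sox17 (ENSDARG00000101717), a transcription factor of arterial endothelium in mouse, had 0.655, 0.729, 1.57, 1.41 and 0.788 CPM in HET and 0.362, 0.245, 0.247, 0.407 and 0.555 CPM in WT. The groups stayed apart for sox17 under all 5 scalings, with a log2 fold change of 1.49 ± 0.45. sox18, which acts with sox7 in zebrafish vessels, had 0.93 ± 0.31, and its HET and WT samples overlapped. Without WT1 and WT5 its log2 fold change was 1.42 and DESeq2 called it (adjusted p = 0.0356). DESeq2 did not call sox18 with all samples or in any leave-one-out fit.

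Over the vessel list 37 of 43 genes lay above WT in HET, with a median log2 fold change of 0.66 and cd34 as the only DESeq2 call (0.178% of genes). The receptor kdrl, which marks blood vessels, showed how the samples differed, with 17.0, 24.8, 63.4, 79.0 and 64.7 CPM in HET and 22.9, 24, 12.5, 6.86 and 51.6 CPM in WT. cdh5, the adhesion molecule between endothelial cells, had 12.1, 14.4, 63.9, 56.7 and 76.2 CPM in HET and 25.3, 21.8, 11.73, 5.29 and 45.5 CPM in WT. HET3, HET4 and HET5 were high for both, while HET1 and HET2 lay within the WT range. The log2 fold changes of 1.08 ± 0.58 for kdrl and 1.03 ± 0.66 for cdh5 were not called by either tool. The mean centred level of the vessel list was −0.35, −0.40, 0.73, 0.64 and 0.81 in HET and 0.10, 0.05, −0.71, −1.36 and 0.49 in WT. The skeletal muscle list, described with the mitochondrial genes, was likewise low in HET1, HET2, WT3 and WT4 and high in HET4, HET5 and WT5. The 2 lists parted in HET3, WT1 and WT2. There the muscle list was 0.18, −0.55 and 0.84, against 0.73, 0.10 and 0.05 for the vessel list. With the muscle level as a covariate the log2 fold changes were 0.92 for cd34, 0.84 for kdrl and 0.64 for cdh5. The median of the vessel list was 1.18 without WT1 and WT5, 0.39 without HET5 and 0.37 with no scaling. tmem204, an endothelial membrane protein looked at after its values were seen, stood apart under all 5 scalings, with 3.81, 4.37, 4.31, 3.71 and 4.69 CPM in HET and 2.39, 1.64, 1.41, 1.98 and 3.70 CPM in WT. The lowest HET sample of tmem204, HET4, lay just above WT5. DESeq2 called tmem204 in the fit without WT5 and in that without both WT1 and WT5.

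**Figure D3:**
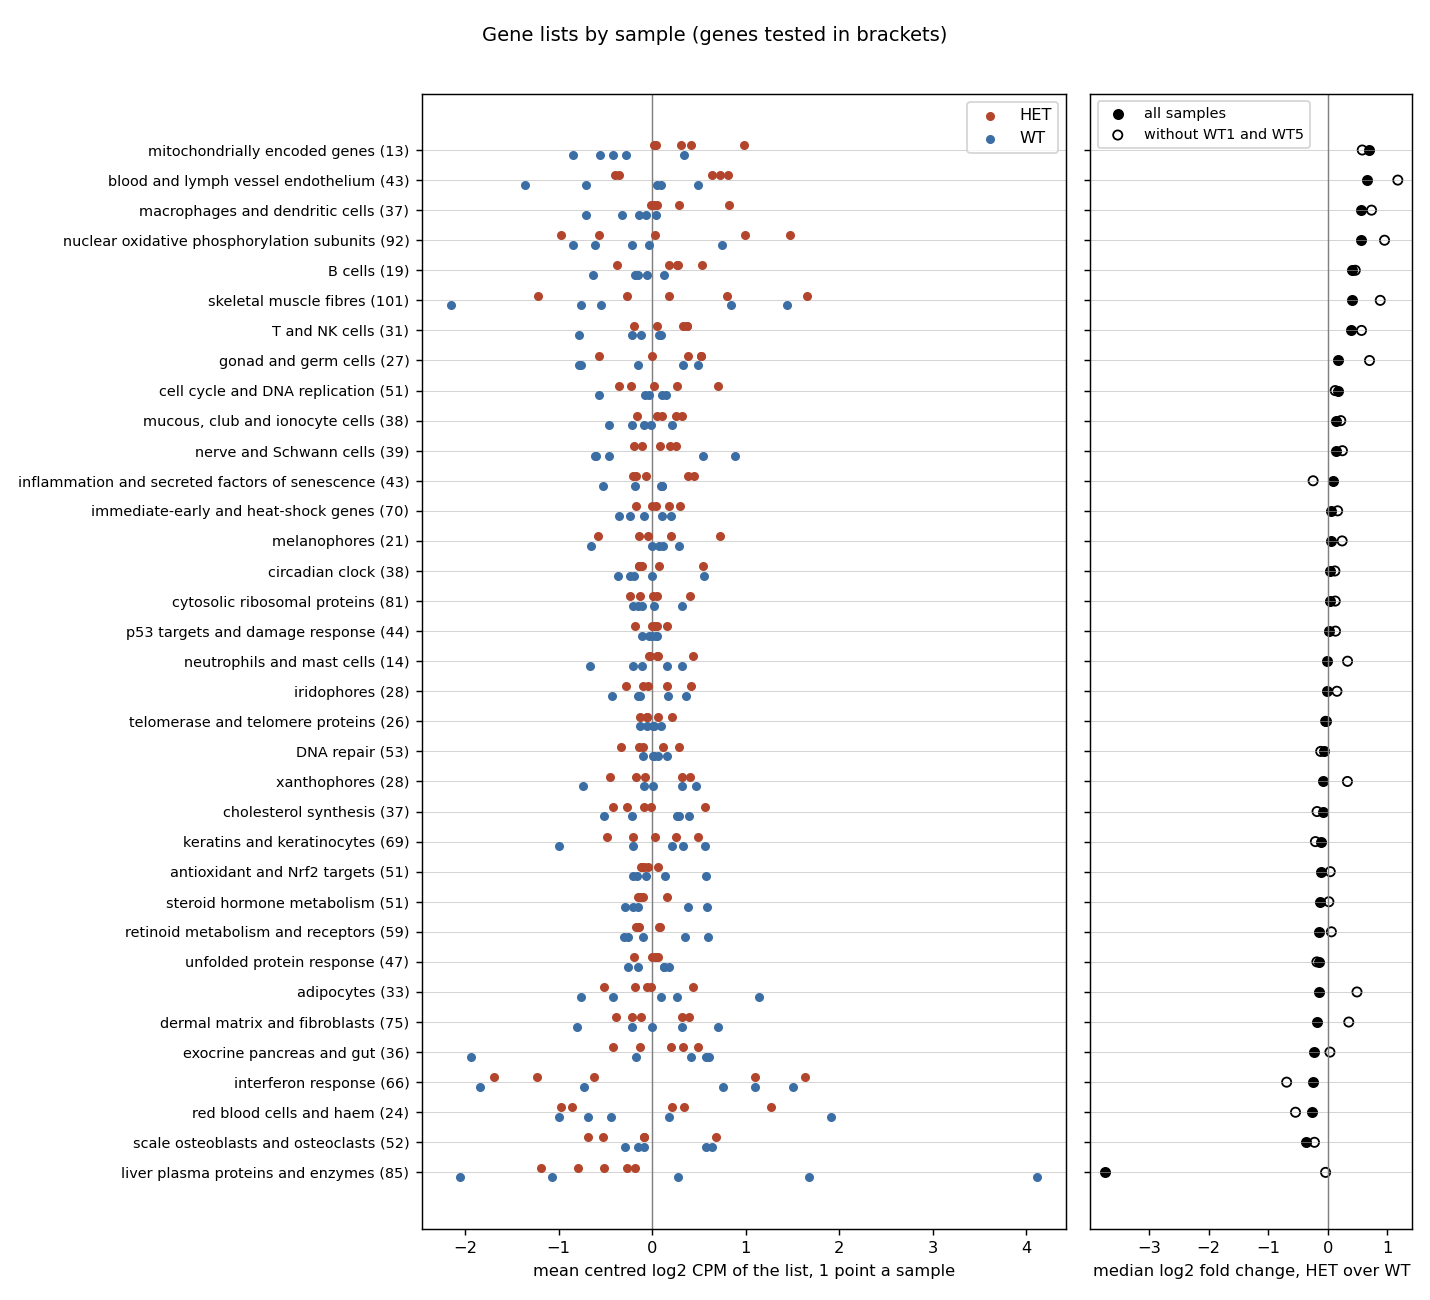
Left, the mean centred log2 CPM of each of 35 gene lists, 1 point a sample, for HET (red) and WT (blue, drawn just below), with the number of genes tested in brackets. Right, the median log2 fold change of HET over WT with all samples (filled) and without WT1 and WT5 (open). The liver list goes from −3.74 with all samples to −0.03 without WT1 and WT5, and its WT5 point lies at 4.12.

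Some genes of the stress response that acts through the endoplasmic reticulum were higher in HET, but the pathway as a list was not. trib3 (ENSDARG00000016200), a pseudokinase induced by this response, stood at 26.4, 32.8, 29.5, 42.6 and 31.0 CPM in HET and 22.5, 19.1, 19, 13.7 and 25 CPM in WT, with no overlap. It rose by a log2 fold change of 0.71 ± 0.19 (DESeq2 adjusted p = 0.0460, and 0.0356 without WT1 and WT5), but no leave-one-out fit called it. ddit3 (ENSDARG00000059836), the transcription factor CHOP, had 16.8, 25, 24, 16.7 and 18.4 CPM in HET and 10.4, 10.304, 14.3, 14.2 and 12.7 CPM in WT. Its groups did not overlap either, while DESeq2 gave an adjusted p of 0.0632 for a log2 fold change of 0.70 ± 0.19. vldlr, a lipoprotein receptor, followed with 0.49 ± 0.18 and overlapping samples. Over the list 16 of 47 genes lay above WT and 31 below, with a median of −0.14 and trib3 as the only call (0.178% of genes).

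Several strong differences fell in no pathway list. kcnc4 (ENSDARG00000061288), a voltage-gated potassium channel, stood at 0.357, 0.304, 0.981, 1.34 and 1.09 CPM in HET and 0.181, 0.204, 0.106, 0.0581 and 0.185 CPM in WT, apart under all 5 scalings, with a log2 fold change of 2.42 ± 0.59 (2.66 without WT1 and WT5). cts12 (ENSDARG00000042753), a cysteine protease of the cathepsin family, had 1.25, 6.32, 1.31, 4.81 and 3.38 CPM in HET and 0.242, 0.981, 0.742, 0.755 and 1.15 CPM in WT. cts12 rose by 2.14 ± 0.51 on the log2 scale (DESeq2 adjusted p = 0.0305), with HET1 and HET3 close to the highest WT sample. ENSDARG00000038891 had 2.86, 4.86, 1.90, 4.95 and 1.54 CPM in HET and 0.0906, 1.1, 0.565, 0.174 and 0.815 CPM in WT (log2 fold change 2.54 ± 0.60, DESeq2 adjusted p = 0.0270). Without WT1 and WT5, ENSDARG00000038891 kept its call (adjusted p = 0.0462) and cts12 did not (0.1005).

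The genes fndc7, fndc7b, moxd1l and cbln20, in none of the gene lists, were called higher by DESeq2 and were lowest in WT1. fndc7 (ENSDARG00000077096) and fndc7b (ENSDARG00000075676), which encode fibronectin type III domain proteins, had 3.45, 3.70, 0.785, 1.86 and 1.39 CPM and 10.7, 8.50, 2.68, 7.63 and 4.05 CPM in HET, against 0.0906, 0.654, 0.283, 0.174 and 0.852 CPM and 0.604, 3.31, 1.91, 1.16 and 2.26 CPM in WT. HET3 overlapped the WT range in both genes, and both were called by DESeq2 (adjusted p = 0.0333 for fndc7 and 0.0334 for fndc7b). moxd1l (ENSDARG00000069296), a monooxygenase related to dopamine beta-hydroxylase, had 2.5, 3.52, 0.850, 2.89 and 2.63 CPM in HET and 0.302, 1.06, 0.494, 0.465 and 1.11 CPM in WT, and cbln20 (ENSDARG00000087476), of the cerebellin family, 6.72, 6.74, 3.66, 7.46 and 4.88 CPM in HET and 0.574, 3.23, 0.954, 0.755 and 2.78 CPM in WT. Their log2 fold changes were 1.84 ± 0.48 for moxd1l and 1.83 ± 0.48 for cbln20 (DESeq2 adjusted p = 0.0334 and 0.0349). Without WT1 and WT5, of these 4 genes fndc7 alone kept its DESeq2 call (adjusted p = 0.0462). HET3 was the lowest HET sample for all of them.

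The differences of exosc7 and rbms1 were smaller. exosc7 (ENSDARG00000100060), a subunit of the RNA exosome, stood at 8.93, 10.32, 9.68, 8.59 and 7.96 CPM in HET and 5.2, 6.17, 5.09, 7.61 and 5.55 CPM in WT. rbms1 (ENSDARG00000074023), an RNA-binding protein, had 21.5, 26.2, 16.6, 19.97 and 24.1 CPM in HET and 13.8, 14.0, 14.4, 15.7 and 15 CPM in WT. Both rose, by 0.62 ± 0.16 on the log2 scale for exosc7 (DESeq2 adjusted p = 0.0334) and 0.57 ± 0.15 for rbms1 (DESeq2 adjusted p = 0.0379), and neither was called without WT1 and WT5. The samples did not overlap with TMM scaling, which held under 4 of the 5 scalings for rbms1 but only under that 1 for exosc7. igsf9a, an immunoglobulin superfamily adhesion protein, exoc3l2a, related to an exocyst subunit, and ptpru (ENSDARG00000092638), a receptor tyrosine phosphatase, also had non-overlapping samples, with log2 fold changes of 1.37 ± 0.48, 1.08 ± 0.42 and 1.08 ± 0.38, and DESeq2 called none of the 3.

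Among the genes that were lower in HET, znf395 (ENSDARG00000060113), a zinc finger transcription factor, was called by DESeq2 in most of the leave-one-out fits. It stood at 13.7, 14.6, 11.9, 10.6 and 12.9 CPM in HET, against 21.1, 20.7, 22.2, 17.2 and 17.6 CPM in WT. It fell by 0.63 on the log2 scale (SE 0.14, DESeq2 adjusted p = 0.0158), held in 8 of 10 such fits, and was not called without WT1 and WT5 (adjusted p = 0.0621). pon2 (ENSDARG00000016856), a paraoxonase family lactonase, had 3.87, 2.49, 1.90, 2.47 and 2.85 CPM in HET and 6.04, 4.70, 4.03, 6.39 and 6.59 CPM in WT. pon2 fell by 1.03 on the log2 scale (SE 0.25, DESeq2 adjusted p = 0.0305). rgs7 (ENSDARG00000016584), a regulator of G protein signalling, had 0.774, 0.243, 0.785, 0.859 and 0.826 CPM in HET and 1.81, 1.96, 1.55, 1.22 and 1.41 CPM in WT (log2 fold change −1.18 ± 0.33, DESeq2 adjusted p = 0.0334). Without WT1 and WT5 the log2 fold changes were −0.90 for pon2 and −1.17 for rgs7, and neither was called. These were the 3 genes called lower by DESeq2 whose samples did not overlap.

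cpeb4 (ENSDARG00000056691), a regulator of messenger RNA polyadenylation, fell to 26.7, 17.7, 20.7, 20.2 and 23.2 CPM in HET, against 30.7, 26.4, 38.8, 45.3 and 31.8 CPM in WT (DESeq2 adjusted p = 0.0379), with HET1 just above WT2. olfm1 (ENSDARG00000014053), a secreted olfactomedin, had 0.893, 1.09, 1.11, 1.65 and 1.13 CPM in HET and 2.84, 3.52, 3.67, 4.01 and 27.0 CPM in WT, and igfbp2 (ENSDARG00000052470), a carrier of insulin-like growth factors made largely by liver, had 3.57, 4.55, 2.03, 4.36 and 5.18 CPM in HET and 13.0, 5.85, 6.92, 6.16 and 78.4 CPM in WT. WT5 was far above the other WT samples in both, yet every other WT sample also lay above HET, under all 5 scalings. Without WT5 the log2 fold change was −1.57 for olfm1 and −1.02 for igfbp2, against −2.79 ± 0.71 and −2.48 ± 0.78 with it. Without WT1 and WT5 it was −1.65 for olfm1 and −0.68 for igfbp2 (DESeq2 adjusted p = 0.200 and 0.683). The receptors ephb2, for ephrins, and bmpr2 (ENSDARG00000020057), for bone morphogenetic proteins, the sialidase neu3 (ENSDARG00000096382), and r3hdm2, fam120b and tmem205 also lay lower without overlap, with log2 fold changes between −1.08 (neu3) and −0.72 (fam120b and tmem205) and no call by edgeR or DESeq2. The separation held under 2 of the 5 scalings for bmpr2 and r3hdm2, 3 for neu3, and 4 for ephb2, fam120b and tmem205.

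**Figure D4:**
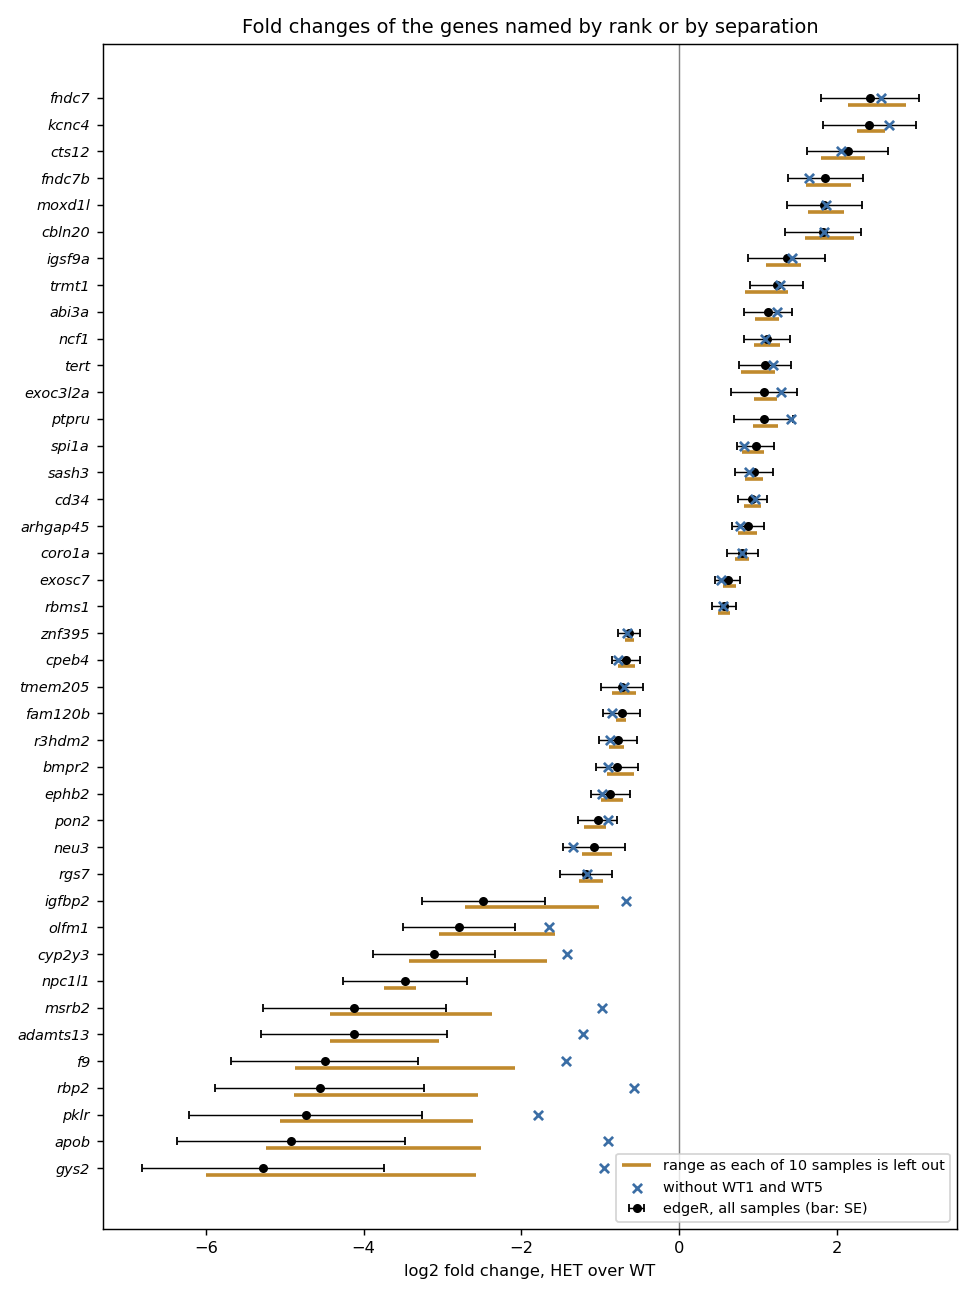
Log2 fold change of HET over WT, with its standard error, for the genes named by rank or by separation, with the range as each of 10 samples is left out (gold line) and the value without WT1 and WT5 (cross). cd34 stays between 0.83 and 1.04 as samples are left out, while apob goes from −4.92 to −2.51 without WT5 and to −0.91 without WT1 and WT5.

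The largest differences were those of liver genes, and they followed WT5 and WT1. apob (ENSDARG00000042780), the main protein of secreted lipoproteins, stood at 1.90, 5.53, 5.23, 5.26 and 5.33 CPM in HET, against 79.4, 21.3, 1.13, 3.89 and 599 CPM in WT. f9, a coagulation factor, had 0.119, 0.607, 0.196, 0.722 and 0.300 CPM in HET and 3.44, 1.88, 0.954, 0.407 and 38.62 CPM in WT. For apob 4 HET samples lay close together and HET1 below them, while the WT samples ran from below HET, in WT3, to far above it in WT5. For f9 WT4 lay within the HET range. The log2 fold changes were −4.92 ± 1.45 for apob and −4.49 ± 1.19 for f9, both called by DESeq2 (adjusted p = 0.0270), and without WT1 and WT5 they were −0.91 and −1.43 with no call.

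This held across the list of liver plasma proteins and enzymes. Of 85 genes tested, 81 lay below WT and 27 were called lower by DESeq2 (0.605% of genes), with a median log2 fold change of −3.74, or −1.2 without WT5 and −0.03 without WT1 and WT5. WT5 was the highest of the 10 samples for 74 of the 85. The mean centred level of the list was −1.19 to −0.18 in HET, and it was 1.68 in WT1, 0.27 in WT2, −2.06 in WT3, −1.07 in WT4 and 4.12 in WT5. Other genes named among the largest decreases were gys2, the glycogen synthase of liver, pklr, the pyruvate kinase of liver and red cells, adamts13, a plasma protease, and msrb2, a methionine sulfoxide reductase, with log2 fold changes between −5.28 and −4.12 and between −1.79 and −0.95 without WT1 and WT5. fabp10a, tfa, apoa2 and hnf4a, chosen after their values were seen, showed the same order of samples. fabp10a, the fatty acid-binding protein of zebrafish liver, had 26.4, 68.0, 38, 58.6 and 35.8 CPM in HET and 951, 216, 7.73, 35.0 and 2548 CPM in WT. cyp2y3 (ENSDARG00000101423), a cytochrome P450, and npc1l1 (ENSDARG00000099558), a sterol transporter of gut and liver, were lower in every HET sample than in most or all WT samples. cyp2y3 had 3.63, 0.972, 0.981, 1.96 and 2.44 CPM in HET and 9.57, 3.11, 6.15, 6.68 and 60.9 CPM in WT, and npc1l1 had 0.0595, 0.121, 0.131, 0.172 and 0.113 CPM in HET and 1.54, 0.450, 0.318, 0.407 and 4.30 CPM in WT. The log2 fold change of cyp2y3 was −3.11 ± 0.78 (DESeq2 adjusted p = 0.027), and −1.42 without WT1 and WT5 (adjusted p = 0.256). That of npc1l1 was −3.48 ± 0.78. DESeq2 gave npc1l1 no adjusted p with all samples, and 0.392 without WT1 and WT5.

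**Figure D5:**
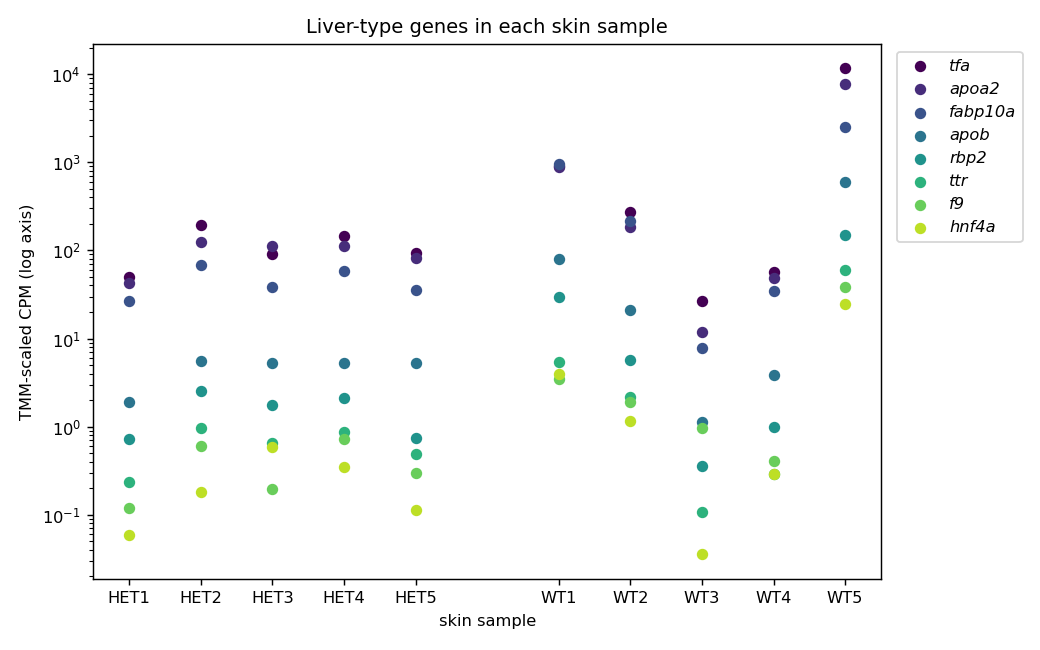
TMM-scaled CPM (log axis) of 8 liver-type genes in each HET (left) and WT (right) skin sample, 1 point a gene and sample. apob runs from 1.90 to 5.53 CPM in HET and from 1.13 CPM in WT3 to 599 CPM in WT5, and all 8 genes are highest in WT5.

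Retinoids, made from vitamin A, control growth and differentiation of epidermal cells, and most of their genes were not called between the genotypes. Of 59 genes for retinoid uptake, storage, synthesis, breakdown and receptors, 20 lay above and 39 below WT in HET, beside 45.6% above WT over all genes tested. The median log2 fold change was −0.14, and 0.06 without WT1 and WT5. DESeq2 called 2 of them lower (0.605% of all genes with an adjusted p were called lower). These were rbp2 (ENSDARG00000093774), a cellular retinol-binding protein, and ttr, transthyretin, the plasma partner of retinol-binding protein. rbp2 stood at 0.714, 2.55, 1.77, 2.1 and 0.751 CPM in HET and 29.8, 5.72, 0.353, 0.988 and 149 CPM in WT, and ttr at 0.238, 0.972, 0.654, 0.859 and 0.488 CPM in HET and 5.38, 2.17, 0.106, 0.290 and 59.8 CPM in WT. Both are also members of the liver list and followed its order of samples, and without WT1 and WT5 their log2 fold changes were −0.56 and −0.40, with no call.

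The differences of aldh1a2 and cyp26a1, enzymes of retinoic acid, were within the spread of samples. aldh1a2, which makes retinoic acid, had 22.4, 15, 39.4, 22.4 and 35.8 CPM in HET and 21.1, 15.5, 7.59, 19.7 and 30.6 CPM in WT (log2 fold change 0.51 ± 0.43). cyp26a1, which breaks it down and is a known target of retinoic acid signalling, stood at 18.8, 2.0, 0.523, 0.344 and 1.2 CPM in HET and 11.9, 0.327, 0.636, 1.39 and 0.704 CPM in WT, so HET1 and WT1 were far above the rest. Its log2 fold change was 0.59 ± 1.18, and −1.62 without HET1. rbp4, the plasma carrier of retinol, had 643, 749, 415, 534 and 485 CPM in HET and 573, 412, 650, 673 and 1385 CPM in WT (−0.39 ± 0.31). The highest of the list on the HET side were bco2 (ENSDARG00000041715), a carotenoid-cleaving oxygenase, with 11.8, 5.83, 6.93, 14.0 and 23.9 CPM in HET and 5.04, 3.97, 6.36, 2.44 and 9.15 CPM in WT, and rbp7, a cellular retinol-binding protein, with 13.8, 10.4, 26.8, 14.6 and 33.4 CPM in HET and 10.4, 5.64, 6.61, 8.13 and 18.6 CPM in WT. Their log2 fold changes of 1.21 ± 0.48 and 1.0 ± 0.50 were called by neither tool. The aldehyde dehydrogenase aldh8a1 lay at −3.11 ± 0.98 (DESeq2 adjusted p = 0.0501) with WT5 as its highest sample, and at −0.30 without WT1 and WT5.

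Steroid hormone genes gave a like picture. Of 51 tested, 16 lay above and 35 below WT in HET (median −0.13, and 0.02 without WT1 and WT5). DESeq2 called 1 of them, lower in HET (0.605% of all genes with an adjusted p were called lower). That gene, cyp3a65, a cytochrome P450 of liver and gut, had 0.417, 1.21, 0.588, 0.481 and 0.863 CPM in HET and 5.86, 1.27, 0.177, 0.755 and 52.6 CPM in WT. Its log2 fold change was −4.09 ± 1.27, and −0.03 without WT1 and WT5. The antioxidant list had 20 of 51 genes above WT (median −0.11) and the adipocyte list 15 of 33 (median −0.15). Each held 1 gene called lower by DESeq2 (0.605% of genes), gpx4a and cideb, and both were highest in WT5. Of 37 cholesterol synthesis genes 17 lay above WT (median −0.07), and DESeq2 called 0.

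Mitochondrial and muscle genes lay higher in HET as groups, without calls. All 13 mitochondrially encoded genes tested lay above WT, with a median log2 fold change of 0.69, and mt-atp8 read 3642, 4132, 7493, 3067 and 3221 CPM in HET and 1896, 1752, 2297, 3648 and 2874 CPM in WT. These 13 genes share 1 chromosome and are not independent, and WT4 lay within the HET range. Of 92 nuclear subunits of oxidative phosphorylation 91 lay above WT, with a median of 0.56 that was 0.17 without HET5 and 0.90 without WT5. sdhb, a subunit of succinate dehydrogenase, had 49.1, 78.1, 63.0, 119 and 154 CPM in HET and 51.8, 70.0, 53.5, 41.1 and 93.0 CPM in WT. HET1, HET2 and HET3 were within the WT range, and HET4 and HET5 above it.

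The skeletal muscle list moved with those subunits from sample to sample. Of 101 muscle genes 79 lay above WT (median 0.42), and the median was −0.06 without HET5 and 0.95 without WT5. The mean centred level was −1.22, −0.26, 0.18, 0.80 and 1.66 in HET and −0.55, 0.84, −0.76, −2.15 and 1.45 in WT, so both genotypes covered nearly the same range. For the subunits it was −0.97, −0.57, 0.03, 0.99 and 1.47 in HET and −0.22, −0.03, −0.61, −0.85 and 0.75 in WT. With the muscle level as a covariate the log2 fold change of sdhb was 0.39, against 0.58 without it, and the part of muscle RNA in the difference of the whole list was not tested. mb, myoglobin, reached 2684 CPM in HET5 and 743 CPM in HET4, against at most 551 CPM in WT (WT5), and had a log2 fold change of 1.93 ± 0.97.

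The interferon response split the samples within each genotype. Of 66 genes 20 lay above and 46 below WT (median −0.24, and −0.69 without WT1 and WT5), with 0 called by edgeR or DESeq2. rsad2, the antiviral protein viperin, stood at 1.07, 2.06, 97.5, 313 and 2.06 CPM in HET and 3.2, 98.8, 130, 250 and 0.741 CPM in WT. It was high in HET3, HET4, WT2, WT3 and WT4 and low in the other 5 samples, and its log2 fold change was −0.21 ± 1.64. The mean of the list ran from −1.69 to 1.63 in HET and from −1.84 to 1.51 in WT.

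Genes of damage, division and inflammation differed little. Of 44 p53 targets 23 lay above WT (median 0.03), with trib3 as the only call (0.178% of genes). Of 53 DNA repair genes 23 did (median −0.06). gadd45g (ENSDARG00000019417), a stress and growth arrest gene, lay lower, with 33.3, 6.68, 12.7, 24.3 and 37.9 CPM in HET and 102, 50.3, 72.4, 21.0 and 62.6 CPM in WT, and plk3, a stress-response kinase, lay higher with a log2 fold change of 0.61 ± 0.24. Of 51 cell cycle genes 34 lay above WT (median 0.18), and of 43 genes for inflammation and secreted factors of senescence 27 did (median 0.10, and −0.24 without WT1 and WT5). tgfb1b, a transforming growth factor of the inflammation list, had a log2 fold change of 0.80 ± 0.38. The medians of the p53, cell cycle and inflammation lists were negative with no scaling (−0.25, −0.08 and −0.18).

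The structural cell types of skin showed no called gene. Of 69 keratin and keratinocyte genes 30 lay above WT (median −0.10), of 75 dermal matrix and fibroblast genes 29 did (median −0.17, and 0.36 without WT1 and WT5), and of 52 scale genes 11 did (median −0.37, beside −0.04 for all genes). fn1 (ENSDARG00000006526), fibronectin, which liver also secretes, stood at 62.2, 56.1, 51.6, 66.2 and 62.9 CPM in HET and 165, 84.4, 28.2, 28.9 and 1691 CPM in WT. WT5 set its log2 fold change of −2.74 ± 0.99, which was −0.36 without that sample. loxl2a, a collagen cross-linking enzyme, had 11.4, 31.3, 10.4, 26.5 and 23.5 CPM in HET and 4.38, 3.56, 2.83, 5.40 and 19.4 CPM in WT. It was called by DESeq2 only in fits without WT5, with an adjusted p of 0.0302 and a log2 fold change of 2.4 without WT1 and WT5. The pigment cell lists lay close to all genes, with 13 of 21 melanophore, 13 of 28 xanthophore and 14 of 28 iridophore genes above WT and medians of 0.05, −0.07 and −0.00. tfec, which iridophores need, stood at 2.80, 2.25, 2.48, 2.17 and 2.29 CPM in HET and 1.27, 1.88, 1.45, 0.581 and 1.78 CPM in WT, without overlap (log2 fold change 0.78 ± 0.30).

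Regulators of ionocytes, the ion-transporting cells of fish skin, lay higher at low levels. foxi3b (ENSDARG00000009550), a forkhead factor that specifies them, had 0.595, 0.850, 0.458, 0.722 and 0.751 CPM in HET and 0.0302, 0.204, 0.353, 0.232 and 0.370 CPM in WT. gcm2 (ENSDARG00000045413), needed for their proton-pumping type, had 0.476, 0.425, 0.392, 0.447 and 0.525 CPM in HET and 0.0302, 0.327, 0.0706, 0 and 0.148 CPM in WT. Both were free of overlap under every scaling tried except no scaling, with log2 fold changes of 1.5 ± 0.62 and 1.92 ± 0.85. Neither was called by edgeR, and DESeq2 gave neither an adjusted p. The list of mucous, club and ionocyte genes as a whole had 23 of 38 above WT (median 0.15, and −0.12 with no scaling).

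The remaining lists held no called gene. Clock genes per2 and cry5, both induced by light in zebrafish, had log2 fold changes of 1.0 ± 0.34 and 1.51 ± 0.62, while the clock list was even (20 of 38 above WT, median 0.04). per2 stood at 34.1, 64.0, 34.6, 71.4 and 32.3 CPM in HET and 27.2, 34.2, 14.7, 18.6 and 23.2 CPM in WT. WT2 alone lay within the HET range. per1 (ENSDARG00000056885), also of the clock list, had a log2 fold change of 1.05 ± 0.54. DESeq2 did not call per1 with all samples, but called it without WT1 and without both WT1 and WT5. Of 39 genes of the nerve and Schwann cell list, which also holds foxi3b and the keratin krt18a.1, 23 lay above WT (median 0.14). Its 3 members with the smallest edgeR p were foxi3b (1.5 ± 0.62), elavl4 (−1.78 ± 0.72) and stmn2 (−2.29 ± 0.95). Of 24 genes of red cells and haem 8 lay above WT (median −0.26, and 0.70 without WT2). Of 81 cytosolic ribosomal protein genes 64 lay above WT with a median of only 0.03. For exocrine pancreas and gut the count was 10 of 36 (median −0.22), for gonad and germ cells 17 of 27 (0.18) and for immediate-early and heat-shock genes 42 of 70 (0.05). The clock, nerve, ribosomal, gonad and immediate-early medians, like those of melanophores, turned negative with no scaling.

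HET was not told apart from HOM. With 3 HOM samples the edgeR contrast of HOM over WT also called 0 genes (0%), so a lack of calls does not show likeness. In the same edgeR fit the contrast of HET over HOM called 0 of 19141 genes (0%, smallest adjusted p 1.0, 525 at an unadjusted p under 0.05), and 0 of the 133 genes chosen by rule passed. Among the genes described, the contrast was wide for moxd1l (HET over HOM log2 fold change 1.88 ± 0.58), cbln20 (1.82 ± 0.59) and trmt1 (1.46 ± 0.40), chosen after their values were seen. HOM over WT was −0.03 ± 0.55 for moxd1l, 0.004 ± 0.56 for cbln20 and −0.22 ± 0.39 for trmt1. For the 3 genes called lower by DESeq2 without overlap HET over HOM was −1.46 ± 0.37 (rgs7), −0.52 ± 0.16 (znf395) and −0.25 ± 0.28 (pon2). Their HOM over WT values were 0.29 ± 0.37, −0.12 ± 0.16 and −0.78 ± 0.29. cd34 lay near HOM (HET over HOM 0.18 ± 0.22, HOM over WT 0.75 ± 0.21). For coro1a HOM lay between HET and WT, with 0.38 ± 0.23 for HET over HOM and 0.43 ± 0.22 for HOM over WT.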

How the data were processed

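RNA from skin of 13 zebrafish samples was sequenced after library preparation with an unstranded TruSeq RNA kit. Reads from sense and antisense partners that overlap therefore cannot be told apart by strand. The authors deposited whole-number read counts per gene for 32105 gene IDs. The submitters' processing notes name bcl2fastq 1.8.4, STAR 2.4.1d, featureCounts 1.4.6-p4 and the genome build GRCz10. A second deposited table, labelled RPKM, was not used, since the tests need counts. Symbols came from a gene name table (26269 IDs matched), and those shared by several IDs are given with the ID. Reads of near-identical copies may have been split between them. Neighbouring genes came from RefSeq (GRCz12tu), and no coordinates are given.

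Groups came from the genotype labels. Replicates were numbered in record order, which pairs no samples. The study's methods give as many of each genotype as there are skin samples, and each sample was taken as 1 fish. Tests on counts used edgeR 4.0.16 (R 4.3.3; filterByExpr, 19141 genes kept, TMM, robust glmQLFit, glmQLFTest), two-sided, in all 13 samples with genotype as the only term and Benjamini-Hochberg adjustment at 0.05. DESeq2 1.42.0, which the study's methods name, was run beside it, and limma 3.58.1 (voom) as an alternative. Standard errors were derived from each fold change and the F value of its test. Genes whose HET and WT samples do not overlap were counted in scaled CPM, also without scaling, with DESeq2 size factors, without mitochondrially encoded genes and with totals of nuclear genes. Library measures and tert were tested by exact permutation (scipy 1.17.1). List levels are means of log2(CPM + 0.1) centred per gene.

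The members and the 35 gene lists were chosen with earlier results of these data known, so list counts are descriptions. Genes named were tert, the 10 genes in each direction with the smallest edgeR p, the 10 with the smallest DESeq2 adjusted p among its calls, the 10 non-overlapping genes with the largest change and a mean of at least 1 CPM (each with an informative symbol), and the 3 members of each list with the smallest edgeR p (133 genes, some of which are not reported here). Other genes are marked as chosen after their values were seen, apart from members of a described list. Alternatives covered tools, scaling, filters, covariates for liver and muscle levels, and samples left out. The fitting code was tested on simulated data.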

Additional observations from a re-analysis of the deposited data

Results flagged for a closer look

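Across 284 groups of 5 samples (206 for genes, the others for gene lists and library measures), 15 held a sample set apart from the other 4 by most of the group's range, and chance alone sets apart about 1 in 20. Among HET samples, HET1 was low for apob (1.90 CPM), pklr (1.55 CPM) and cideb (0 CPM). HET2 was low for rgs7 (0.243 CPM) and high for sypl2, a synaptophysin-like protein of muscle (6.68 CPM). HET3 was low for moxd1l (0.850 CPM) and for pvalb8, a parvalbumin (10.1 CPM), and high for elavl4, an RNA-binding protein of neurons (1.44 CPM).

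Among WT samples, WT4 was low for trmt1 (7.09 CPM) and cd22 (0.232 CPM), WT5 was high for olfm1 (27.0 CPM), and WT1 was high for the clock gene per1 (ENSDARG00000056885, 8.19 CPM). For gene lists, the mean centred log2 level was high in HET3 for neutrophils and mast cells (0.43) and in HET1 for steroid hormone metabolism (0.16), and low in HET5 for the unfolded protein response (−0.19).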

How the results depend on the processing

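The edgeR count of 0 genes between HET and WT was also 0 under every edgeR and limma alternative run, including 10 fits that left out 1 sample each, and 123 with DESeq2. The DESeq2 count of 123 was 205 at an adjusted p under 0.1, 27 without WT1 and WT5, and 1 to 249 as single samples were left out. The 108 genes whose samples do not overlap became 207 with no scaling and, in alternatives chosen after seeing the data, 783 without WT1 and WT5 and 158 to 387 as single samples were left out, where fewer samples make separation easier. The difference in mitochondrial share, 10.7 percentage points, ran from 7.59 to 13.9 as samples were left out, with an exact permutation p of 0.0159 without WT4 and 0.0476 without HET5. A kept direction was likely beforehand for genes named for their differences in these same samples, and it says nothing of size. Over 102 genes, 2396 of 2406 fold changes kept their direction. The 10 that reversed were those of apoa2 (0.28 with the liver level as a covariate, 0.23 without WT1 and WT5), fn1 (0.016 and 0.35 in the same fits), cyp26a1 (−1.62 to 2.54 as single samples were left out, negative without HET1) and rsad2 (0.37 with the muscle level as a covariate, and −1.91 to 0.52 as single samples were left out, positive without HET1, HET2, HET5 or WT4). The cause of these reversals was not tested. Of 490 list medians under alternatives, 69 differed in sign from the value given and 16 moved beyond the spread of samples. No paired analysis was possible because the labels give no replicate numbers. Genes below about 1 CPM rest on few counts, which limits the precision of their values.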
